A study of Mus musculus with 2 samples.

Results

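The nuclear oxidative phosphorylation genes were taken as the columns of the 2 deposited count tables whose symbols begin with Ndufa, Ndufb, Ndufc, Ndufs, Ndufv, Uqcr, Cox4, Cox5, Cox6, Cox7, Cox8 or Atp5, and 87 of 27032 measured genes met this rule. They comprise 7 core subunits, 29 accessory subunits and 8 assembly factors of complex I, 8 subunits of complex III, 18 of complex IV and 17 of complex V. Both samples held spleen cells of Wild-Type Mus musculus (C57BL/6J background, no treatment, age not stated in the labels) enriched with magnetic beads against CD11c, an integrin carried by dendritic cells (DCs) and by some macrophages and lymphocytes. Transcripts of single cells were counted as unique molecular identifiers (UMIs), so that each count is a captured mRNA molecule. Replicate 1 held 3308 cells with 46953398 UMIs and replicate 2 held 3085 cells with 43137746 UMIs. The labels do not say how many mice each sample pooled, and both were tagged and captured in 1 run, so p-values here measure only the spread between these 2 samples. After filtering, 5653 of 6393 cells remained, of which 4435 fell into 1 of 9 classes defined by marker UMIs and 1218 into none.

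Oxidative phosphorylation passes electrons from NADH and succinate along complexes I to IV of the inner mitochondrial membrane to oxygen, and complex V, the ATP synthase, uses the resulting proton gradient to make ATP. The core of complexes I, III, IV and V is built from subunits of both genomes: 13 mRNAs come from mitochondrial DNA, and the remaining subunits, described here, are made in the cytosol and imported. Conventional type 1 DCs (cDC1s) present antigen of dead cells to CD8 T cells, conventional type 2 DCs (cDC2s) mainly serve CD4 T cells, and DCs that mature switch on Ccr7 and Fscn1 to migrate. How these cells divide their energy supply between respiration and glycolysis is a recurrent question in DC biology.

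Each class was set by its gate, with the earliest match kept. Macrophages had at least 20 Vcam1 and 5 C1qb UMIs (293 and 130 cells in replicates 1 and 2), mature DCs at least 2 Ccr7 and 1 Fscn1 (138 and 173), and cDC1s at least 2 Clec9a and 1 Xcr1 (684 and 570). The plasmacytoid DC (pDC) gate required at least 3 Siglech and 1 Ccr9 (13 and 19 cells), B cells 3 Cd79a (65 and 172), T cells 2 Cd3e (41 and 159) and NK cells 1 Ncr1 (38 and 36). DCIR2 cDC2s had at least 2 Clec4a4 UMIs (556 and 456) and CLEC10A cDC2s at least 2 of Clec10a and Cd209a together (484 and 408). Markers that no gate used peaked in their own class for 10 of 10 macrophage, 8 of 8 mature DC, 6 of 8 cDC1, 7 of 7 B-cell, 7 of 7 T-cell and 7 of 7 NK-cell genes. The same held for only 1 of 6 markers of DCIR2 cDC2s, 2 of 6 of CLEC10A cDC2s and 4 of 8 of the pDC gate. The names of these 3 classes therefore stand for cells that passed the gate, not for a proven cell type. Summed over the list, macrophages exceeded both cDC2 classes. They had 1141 and 1226 CPM against 1028 and 1034 for the DCIR2 list, and 3813 and 5690 against 1770 and 2621 for the CLEC10A list. In DCIR2 cDC2s, 230 of 556 and 207 of 456 cells sat exactly at a gate minimum, and 610 kept cells met several gates.

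Members of these complexes are known to share promoter elements, and the promoters of Uqcr11, Cox6a1, Atp5k and Ndufaf8, whose transcripts were all higher in cDC1s than in DCIR2 cDC2s, are shown for that reason. Uqcr11 encodes the smallest subunit of complex III, Cox6a1 the ubiquitous form of a complex IV subunit, Atp5k subunit e of ATP synthase and Ndufaf8 a complex I assembly factor. The sequences are RefSeq promoters of build GRCm38.p6, from 250 bases before to 50 bases after the start of transcription. The windows are chr10:80406772-80407071 (minus strand, Uqcr11), chr5:115348909-115349208 (minus strand, Cox6a1), chr5:108434350-108434649 (minus strand, Atp5k) and chr11:120098684-120098983 (plus strand, Ndufaf8). Capitals mark matches to the core of the NRF1 motif (CGCATGCG), an ETS motif (CCGGAAGT) or a YY1 motif (AAGATGGCG).
Uqcr11: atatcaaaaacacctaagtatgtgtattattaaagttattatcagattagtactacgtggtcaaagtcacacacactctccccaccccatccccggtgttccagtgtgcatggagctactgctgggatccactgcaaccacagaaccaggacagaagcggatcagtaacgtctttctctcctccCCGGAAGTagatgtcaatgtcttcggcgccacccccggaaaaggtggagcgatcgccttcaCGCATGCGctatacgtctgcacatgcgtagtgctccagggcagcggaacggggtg
Cox6a1: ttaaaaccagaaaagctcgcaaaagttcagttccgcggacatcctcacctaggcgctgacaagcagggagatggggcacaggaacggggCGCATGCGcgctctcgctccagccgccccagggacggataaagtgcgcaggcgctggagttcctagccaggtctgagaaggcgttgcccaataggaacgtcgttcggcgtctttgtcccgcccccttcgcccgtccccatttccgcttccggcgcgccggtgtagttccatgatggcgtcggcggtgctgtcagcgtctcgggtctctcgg
Atp5k: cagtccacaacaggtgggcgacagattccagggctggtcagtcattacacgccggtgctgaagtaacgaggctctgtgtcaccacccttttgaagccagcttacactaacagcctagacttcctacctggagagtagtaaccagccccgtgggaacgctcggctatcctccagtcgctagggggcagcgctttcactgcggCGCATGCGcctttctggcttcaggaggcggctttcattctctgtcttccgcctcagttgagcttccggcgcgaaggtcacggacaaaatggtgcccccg
Ndufaf8: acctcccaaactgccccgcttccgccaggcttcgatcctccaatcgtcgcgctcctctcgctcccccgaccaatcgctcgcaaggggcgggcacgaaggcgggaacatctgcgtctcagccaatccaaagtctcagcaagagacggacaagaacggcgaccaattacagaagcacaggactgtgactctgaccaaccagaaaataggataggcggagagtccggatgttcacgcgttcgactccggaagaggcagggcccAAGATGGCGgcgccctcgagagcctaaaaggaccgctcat

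Of the 87 members, 70 had a promoter in the RefSeq table. Searched on both strands, the NRF1 core stood in 11 of 70 members (15.7%) and in 559 of 27025 genes (2.07%). The YY1 motif stood in 8 of 70 (11.4%) and in 443 of 27025 (1.64%), and the ETS motif in 5 of 70 (7.14%) and in 1164 of 27025 (4.31%). No motif contains another, although neighbouring matches could share end bases, and a match is a string in this window, not a measured binding site. Of the 33 members called higher in cDC1s that had a promoter, 12 held at least 1 of the motifs, as did 10 of 35 other tested members. The NRF1 core was in 5 of 33 and 6 of 35 of them, ETS in 3 and 2, and YY1 in 6 and 2.

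The members together took 0.991% and 1.01% of all UMIs of cDC1s in replicates 1 and 2, the highest mean share of the 9 classes. NK cells followed with 0.977% and 0.876%, and T cells with 0.883% and 0.901%. DCIR2 cDC2s gave 0.845% and 0.856%, and CLEC10A cDC2s 0.818% and 0.838%. The lower end held the pDC gate with 0.795% and 0.773%, macrophages with 0.763% and 0.773%, B cells with 0.753% and 0.690%, and mature DCs with 0.690% and 0.668%. The cDC1 values lay above those of every other class, and the 2 cDC2 classes did not overlap, whereas NK and T cells, the pDC gate and macrophages, and B cells and mature DCs overlapped as neighbours in this order. No p is given for a sum over members. Depth did not follow the same order: the median UMIs per cell were 19520.5 and 20952.5 in cDC1s and 19313 and 18136.5 in macrophages, against 12205 and 12094.5 in DCIR2 cDC2s and 6145 and 6490 in T cells. In a median cDC1 the members gave 189 and 208.5 UMIs, and in a median mature DC 69 and 68.

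**Figure D1:**
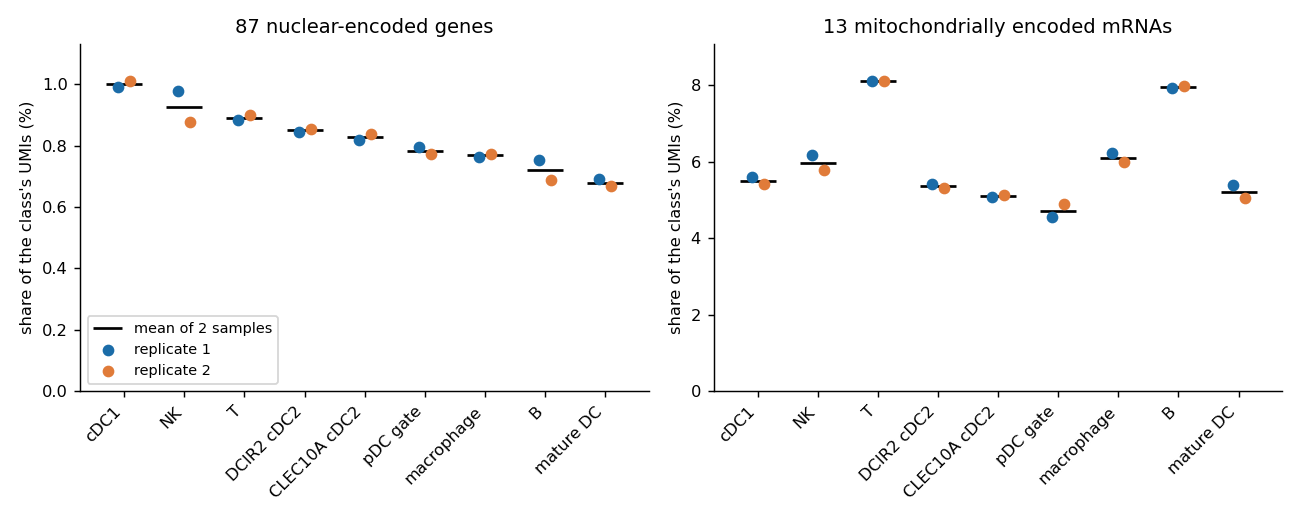
Share of a class's UMIs (percent, y axis from 0) taken by the 87 nuclear genes (left) and the 13 mitochondrially encoded mRNAs (right) in 9 classes, with 1 point per replicate and a line at the mean of the 2 samples. cDC1s have the highest nuclear share (0.991% and 1.01%) and mature DCs the lowest mean, while T and B cells have the highest mitochondrial shares (7.93% to 8.10%).

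The complexes did not keep the same order. Complex V took 0.329% and 0.339% of cDC1 UMIs and 0.222% and 0.218% of mature DC UMIs, and T cells, with 0.316% and 0.313%, came next to cDC1s. For complex I, which takes electrons from NADH, NK cells had 0.267% and 0.243%, which overlapped the 0.242% and 0.246% of cDC1s, and mature DCs had 0.171% and 0.165%. For complex III the highest share was that of cDC1s (0.0878% and 0.0898%), and macrophages (0.063% and 0.0668%) overlapped mature DCs (0.0671% and 0.0604%) at the bottom. For complex IV, cytochrome c oxidase, cDC1s had 0.317% and 0.321%, NK cells 0.306% and 0.251%, and B cells 0.216% and 0.184%.

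The 13 mRNAs of mitochondrial DNA were ordered differently from their nuclear partners. They took 8.10% and 8.10% of UMIs in T cells and 7.93% and 7.99% in B cells, but 5.60% and 5.40% in cDC1s and 4.56% and 4.88% in the pDC gate. Per UMI of the nuclear members, B cells held 11.1 ± 0.749 mitochondrial UMIs (SD, n = 2), T cells 9.09 ± 0.133, macrophages 7.95 ± 0.301, mature DCs 7.68 ± 0.192 and cDC1s 5.50 ± 0.214. Macrophages (8.16 and 7.74 in replicates 1 and 2) overlapped mature DCs (7.82 and 7.55). NK cells (6.46 ± 0.192), DCIR2 cDC2s (6.31 ± 0.151), CLEC10A cDC2s (6.17 ± 0.0567) and the pDC gate (6.02 ± 0.411) also overlapped as neighbours in that order. Cells with a deviating mitochondrial share had been removed, which limits how high this ratio can be.

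Of the 87 members, 30 had their highest mean level in cDC1s. Among 10199 genes of at least 300 UMIs, 7.72% peaked in cDC1s. NK cells held the highest level of 18 members (15.7% of all those genes), T cells of 14 (15%), the pDC gate of 12 (14.1%) and macrophages of 7 (16.4%). In mature DCs 29 members had their lowest level, as did 15.1% of all those genes. The 10 members of highest mean level were Atp5g2, Cox7c, Cox7a2l, Cox8a, Atp5a1, Cox6a1, Uqcrh, Cox6c, Cox6b1 and Cox4i1. Reads could fall to another gene for 39 members whose models overlap a neighbour, and the sources used here do not say whether strand was used.

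**Figure D2:**
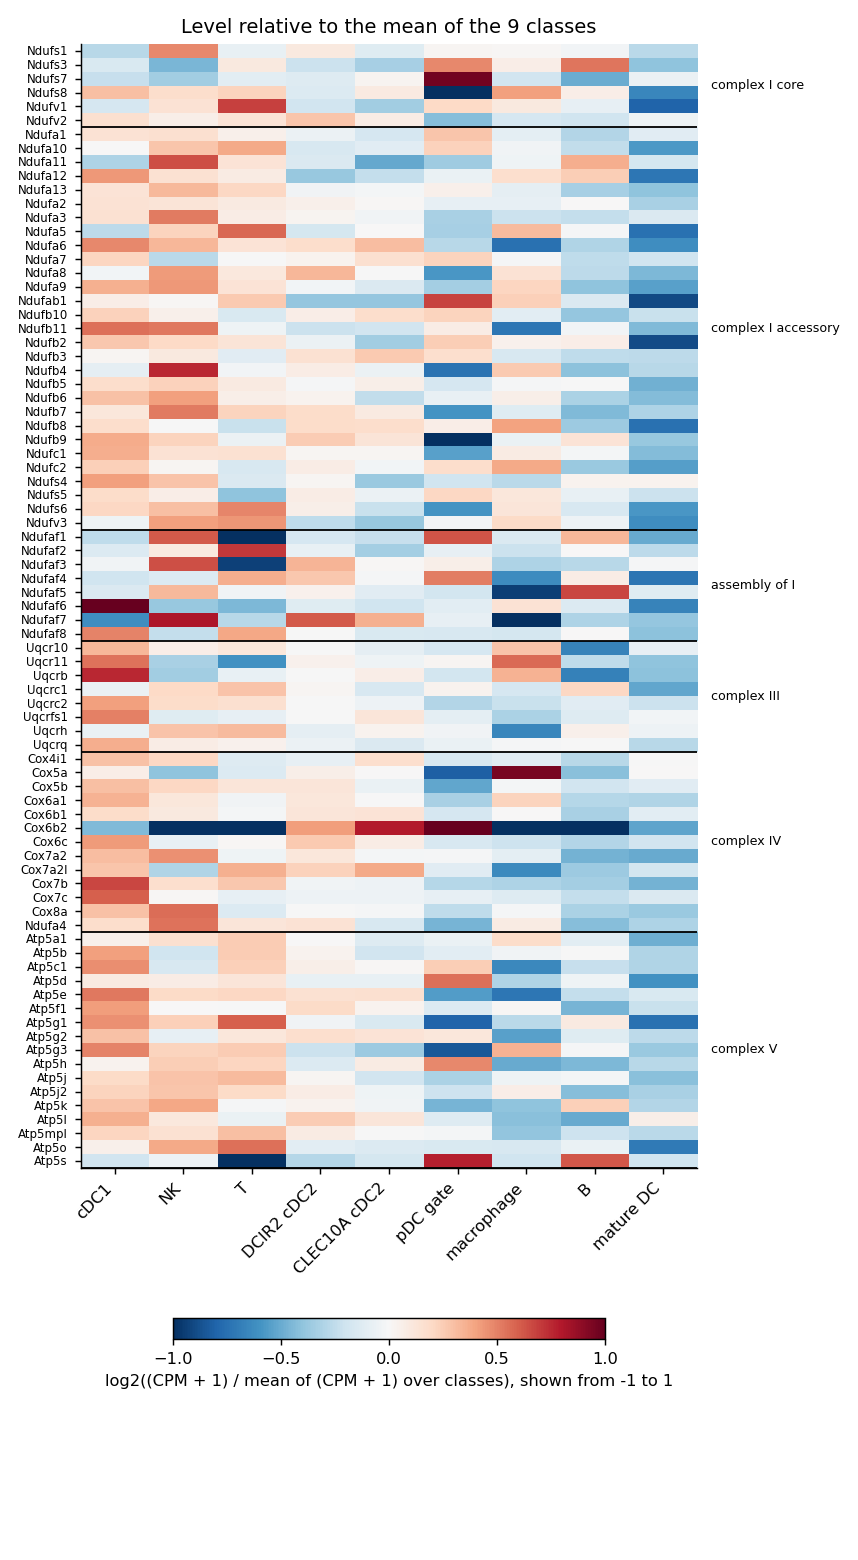
Level of 81 members (rows, grouped by complex) in 9 classes (columns, ordered by share of UMIs), as log2 of CPM + 1 over the mean of the classes, with the colour scale held between -1 and 1. The 5 members near 0 in nearly all classes (Cox4i2, Cox6a2, Cox7a1, Cox7b2, Ndufa4l2) and 1 not reported here were left out. The cDC1 column is mostly red and the mature DC column mostly blue, while the macrophage column mixes red (Cox5a) and blue (Ndufa6, Atp5e).

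Compared with DCIR2 cDC2s, cDC1s had higher levels of nuclear oxidative phosphorylation genes, with some called in each of complexes I, III, IV and V. Counts were summed per class and sample and tested with edgeR, and a call is an adjusted p under 0.05 over all 11903 genes tested. Of 84 members tested, 40 rose in cDC1s, where 17.0% of all genes did, and 1 fell, where 17.2% of all genes did. The median log2 difference was 0.36 over the members and 0.005 over all genes. The calls covered 13 of 17 complex V genes, 6 of 8 of complex III, 7 of 15 of complex IV, 11 of 29 accessory subunits of complex I and 2 of 8 assembly factors, but 1 of 7 complex I core subunits.

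Ndufa12, an accessory subunit of the arm of complex I that takes up electrons (chr10:94198720-94221443, plus strand), had 112 and 110 CPM (counts per 1000000 UMIs of the class) in cDC1s and 60.5 and 64.6 in DCIR2 cDC2s. The log2 difference was 1.02 ± 0.13 (SE, adjusted p = 2.22e-06), and no class reached the cDC1 values. Ndufb11, of the membrane arm, had 131 and 141 CPM against 75.6 and 83.6 (0.97 ± 0.15, adjusted p = 2.82e-05). The only core subunit to rise was Ndufs8, an iron-sulfur protein, at 25.2 and 26.1 CPM against 20.5 and 17.0 (0.64 ± 0.22, adjusted p = 0.0291). The other 6 core subunits did not pass the test.

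The assembly factors of complex I, which are not part of the finished enzyme, did not all move the same way. Ndufaf6 (chr4:11051045-11076205, minus strand) had 30.1 and 25.5 CPM in cDC1s and 13.3 and 9.66 in DCIR2 cDC2s. It gave the largest rise among called members, 1.46 ± 0.25 (adjusted p = 0.000119). Ndufaf7, a mitochondrial methyltransferase (chr17:78937136-78948052, plus strand), had 13.1 and 10.8 CPM in cDC1s and 30.1 and 28.8 in DCIR2 cDC2s, and was the single member that fell (-1.10 ± 0.23, adjusted p = 0.000734). In both cases the samples of the 2 classes did not overlap.

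In complex III, Uqcrb, a small subunit at the ubiquinone site, had 156 and 156 CPM in cDC1s and 90.4 and 92.3 in DCIR2 cDC2s (0.96 ± 0.14, adjusted p = 1.83e-05). The Rieske iron-sulfur protein Uqcrfs1 had 77.5 and 81.9 CPM against 51.7 and 59.5 (0.71 ± 0.14, adjusted p = 0.00035). Of complex IV, Cox7b had 161 and 168 CPM against 98.8 and 102 (0.91 ± 0.15, adjusted p = 5.49e-05). Cox7c, among the most abundant members, had 601 and 604 CPM in cDC1s and between 330 and 459 in all other classes, with a difference of 0.84 ± 0.13 from DCIR2 cDC2s (adjusted p = 2.41e-05). The c ring of ATP synthase, through which protons pass, is encoded by 3 genes with the same mature protein, and all 3 rose. Atp5g3 had 310 and 325 CPM against 196 and 191 (0.91 ± 0.12, adjusted p = 3.11e-06), Atp5g1 150 and 154 against 109 and 106 (0.69 ± 0.16, adjusted p = 0.00198), and Atp5g2 569 and 588 against 518 and 544 (0.32 ± 0.11, adjusted p = 0.0331, and 0.0541 with the replicate block).

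**Figure D3:**
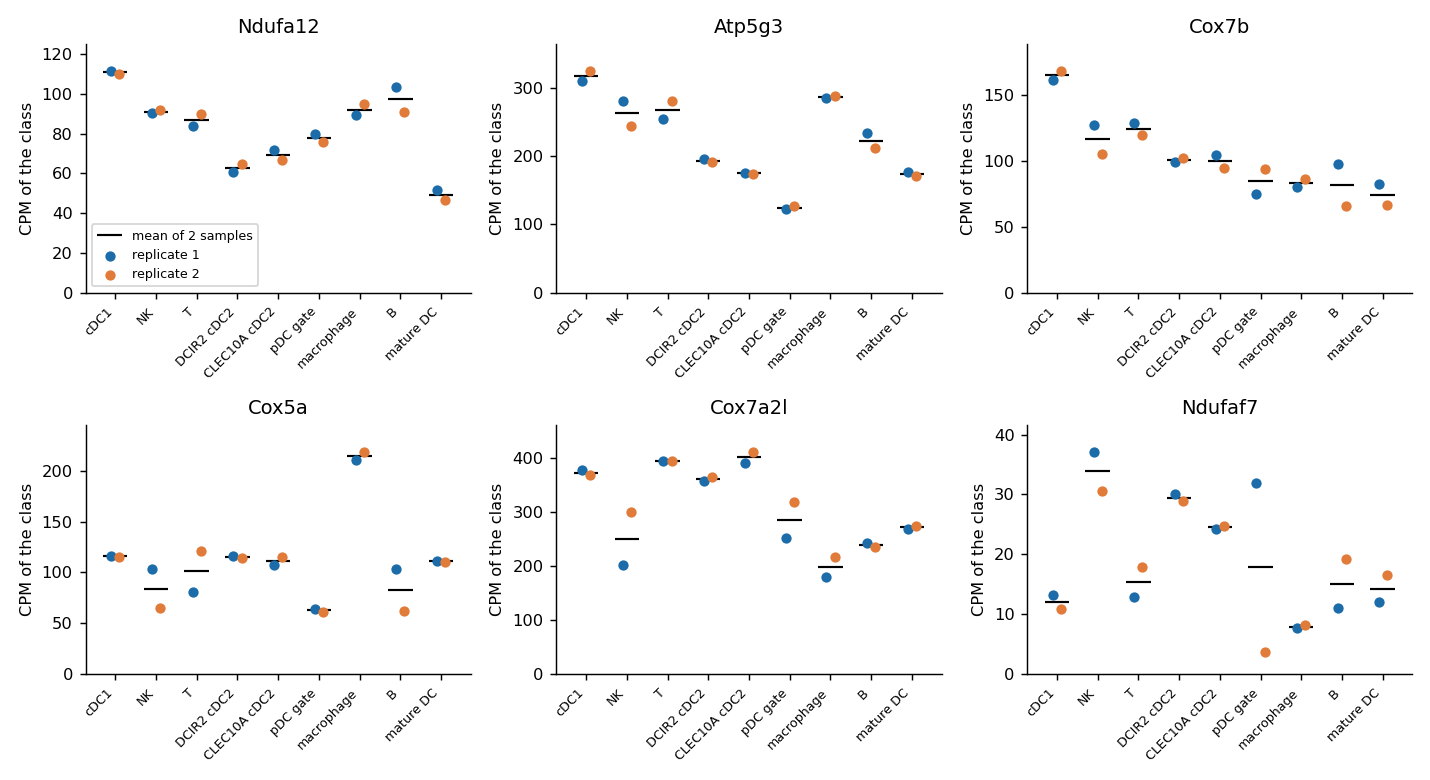
Levels of 6 members in 9 classes (CPM, y axes from 0), with 1 point per replicate and a line at the mean. Ndufa12, Atp5g3 and Cox7b are highest in cDC1s, Cox5a in macrophages (210 and 219 CPM), Cox7a2l is low in macrophages (179 and 217 CPM), and Ndufaf7 is lower in cDC1s than in both cDC2 classes.

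Genes around the chain moved partly with it. Cycs, cytochrome c, which carries electrons between complexes III and IV, had 111 and 120 CPM in cDC1s and 62.1 and 54.1 in DCIR2 cDC2s (1.18 ± 0.15, adjusted p = 2.65e-06). Of the 4 complex II genes 3 rose, of the 13 mitochondrial mRNAs 4 rose, and of 17 glycolysis genes 9 rose and 3 fell. In the tricarboxylic acid (TCA) cycle 2 of 13 genes rose and 2 fell, with Mdh2, malate dehydrogenase, at 109 and 97.3 CPM in cDC1s and 625 and 509 in DCIR2 cDC2s (-2.26 ± 0.28, adjusted p = 1.98e-06). Ribosomal protein genes rose as well: 59 of 76 of the cytosolic and 19 of 77 of the mitochondrial ribosome. Of 12 regulators of mitochondrial biogenesis 1 rose and 1 fell.

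cDC1s were more deeply covered than DCIR2 cDC2s, and the part of depth in the difference was not tested beyond 1 restriction: with cells of 8000 to 20000 UMIs only, 32 members rose. Scaling by library size alone moved the median of all genes by -0.19 and left 20 members higher, with all-gene calls then 32.3% upward in place of 49.7%, and Atp5g2, Cox6a1 and Ndufs8 lost their calls.

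For none of the members did a difference between the cDC2 classes pass the edgeR test. The 2 classes are not cleanly separate. By gate order, 209 of 556 and 156 of 456 DCIR2 cDC2s also met the CLEC10A gate, while 0 CLEC10A cDC2s met another gate. No member was called higher (3.55% of all genes were) or lower (1.99%) in CLEC10A cDC2s than in DCIR2 cDC2s, and the median log2 difference was -0.02. By unadjusted p under 0.05 the count was 2, and DESeq2 called 2 members higher. Cox4i1, the ubiquitous isoform of a regulatory complex IV subunit, had 263 and 274 CPM in CLEC10A and 218 and 235 in DCIR2 cDC2s (0.30 ± 0.13, adjusted p = 0.228 by edgeR). Of 17 glycolysis genes 3 were higher in CLEC10A cDC2s, as were 2 of 76 cytosolic ribosome genes. No mitochondrial mRNA and no gene of the TCA cycle, complex II, the carriers, the regulators or the mitochondrial ribosome was called in that comparison.

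Mature DCs had less of these transcripts than resident cDCs, taken as the equal-weight mean of cDC1s, DCIR2 cDC2s and CLEC10A cDC2s. Of 84 members 35 fell, where 15.0% of all genes did, and 1 rose, where 18.2% of all genes did. The median log2 difference was -0.37 over the members and -0.025 over all genes. The falls included 12 of 17 complex V genes, 13 of 29 accessory subunits of complex I, 6 of 15 complex IV genes, 2 of 8 complex III genes and 2 of 8 assembly factors. None of the 7 core subunits of complex I was called. This comparison and the following 3 share the resident cDC samples, so their values are given side by side and not as independent results.

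Ndufb8, an accessory subunit of the membrane arm of complex I, had 18.9 and 17.0 CPM in mature DCs and between 34.1 and 36.4 in the 6 resident cDC sums (-0.91 ± 0.19, adjusted p = 0.000761). Ndufa6, which joins the acyl carrier protein to complex I, had 39.1 and 54.0 CPM against 80.7 to 106 (-0.88 ± 0.17, adjusted p = 0.000484). The assembly factors Ndufaf6, at 7.57 and 7.50 CPM (-0.94 ± 0.33, adjusted p = 0.0345), and Ndufaf4, at 18.9 and 15.0 CPM (-0.73 ± 0.27, adjusted p = 0.0411), also fell. In none of these 4 genes did mature DC values reach those of a resident class.

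The c-ring genes fell unequally. Atp5g1 had 70.0 and 60.5 CPM in mature DCs and 98.5 to 154 in resident cDCs (-0.79 ± 0.16, adjusted p = 0.000777), Atp5g2 fell by 0.40 (adjusted p = 0.00333) and Atp5g3, at 177 and 170 CPM, fell by 0.28 (adjusted p = 0.0404, and 0.0832 with the replicate block) but overlapped CLEC10A cDC2s. In complex IV, Cox7b had 82.0 and 66.5 CPM (-0.62 ± 0.14, adjusted p = 0.0024) and Cox7a2l 269 and 273 against 357 to 411 (-0.42 ± 0.12, adjusted p = 0.0087). In complex III, Uqcrb had 64.3 and 73.5 CPM against 87.3 to 156 (-0.62 ± 0.14, adjusted p = 0.00186). The 1 call upward, Cox6a2, rested on 11 UMIs of 1 cell described below and 1 UMI in replicate 2.

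The 13 mitochondrial mRNAs did not follow: 0 were called, none had an unadjusted p under 0.05, and their median was 0.05. Of 17 glycolysis genes 9 fell, of 13 TCA cycle genes 4, of 4 complex II genes 2, and Cycs fell by 0.83 (adjusted p = 0.000369). Of the regulators, Myc, a driver of growth, had 6.31 and 5.50 CPM against 19.4 to 31.8 in resident cDCs (-1.93 ± 0.35, adjusted p = 0.000264), and Ppargc1a, a coactivator of mitochondrial biogenesis, had 10.7 and 4.50 against 0.423 to 6.66, which overlapped (2.32 ± 0.59, adjusted p = 0.00497). In all, 4 of 12 regulators fell and 1 rose. Cytosolic ribosomal protein genes fell in 57 of 76 and mitochondrial ones in 18 of 77, with 3 higher.

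Cells with at least 2 UMIs of Mki67 and Top2a together, called cycling here, made up 15.2% and 16.8% of mature DCs against 23.8% and 26.1% of cDC1s, 27.5% and 30.7% of DCIR2 cDC2s and 14.9% and 15.7% of CLEC10A cDC2s, and without cycling cells 29 members fell. Then Ndufaf6, Uqcr11 and Atp5g3 lost their calls.

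In macrophages, some members rose and others fell. Of 84 members 12 rose, where 27.5% of all genes did, and 18 fell, where 26.6% of all genes did. The 12 include Cox4i2 and Cox6a2, which are near 0 in resident cDCs and passed the filter on low counts only through other classes. The 18 include Cox6b2, which is low in macrophages and passed that filter only through classes other than macrophages. The median difference from resident cDCs was -0.04 over the members and -0.031 over all genes. Complex V had 2 higher and 7 lower genes of 17, complex IV 3 and 4 of 15, complex III 1 and 2 of 8, accessory subunits of complex I 5 and 2 of 29, core subunits 1 and 1 of 7, and assembly factors 0 and 2 of 8. Upward calls made up 40% of the members' calls, 54.5% with RLE size factors and 29% with library size alone, and the members' median turned to 0.03 with RLE or DESeq2.

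Cox5a, a nuclear subunit of complex IV (chr9:57521274-57532426, plus strand), had 210 and 219 CPM in macrophages and between 107 and 117 in resident cDCs (0.98 ± 0.13, adjusted p = 2.61e-06), and no class other than macrophages exceeded 121. Ndufab1, the mitochondrial acyl carrier protein, had 76.5 and 72.6 CPM against 43.2 to 70.0 (0.56 ± 0.12, adjusted p = 0.000759), and Ndufa5 32.0 and 30.6 against 20.4 to 27.4 (0.55 ± 0.18, adjusted p = 0.0117). Within the c ring the genes parted. Atp5g3 rose, with 286 and 288 CPM against 174 to 325 (0.45 ± 0.09, adjusted p = 0.000391), while Atp5g2 fell, with 315 and 334 against 506 to 588 (-0.67 ± 0.10, adjusted p = 5.77e-06). Atp5g1, at 101 and 81.2 CPM, did not pass the test (-0.28 ± 0.14, adjusted p = 0.103, and 0.038 with the replicate block).

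Among the genes that fell, macrophage samples lay under all resident cDC samples in each case named here. Atp5e, the small epsilon subunit of ATP synthase, had 77.6 and 74.2 CPM against 130 to 189 (-0.93 ± 0.11, adjusted p = 6.26e-07). Cox7a2l had 179 and 217 CPM against 357 to 411 (-0.87 ± 0.12, adjusted p = 2.51e-06), and Ndufa6 42.1 and 43.2 against 80.7 to 106 (-1.01 ± 0.16, adjusted p = 1.58e-05). Ndufaf7 had 7.59 and 8.16 CPM, under the 10.8 to 30.1 of resident cDCs (-1.32 ± 0.25, adjusted p = 0.000159). In complex III, the hinge protein Uqcrh fell to 154 and 193 CPM from 253 to 280 (-0.55 ± 0.11, adjusted p = 0.00026), whereas Uqcr11 had 62.2 and 74.6 against 43.6 to 68.5 (0.45 ± 0.15, adjusted p = 0.0204).

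Most genes of complex II and of mitochondrial DNA were higher in macrophages. All 4 complex II genes rose, led by Sdhc, a membrane anchor of succinate dehydrogenase, with 114 and 119 CPM against 35.5 to 42.3 (1.67 ± 0.11, adjusted p = 5.35e-11), and 11 of 13 mitochondrial mRNAs rose. Ppargc1b, a coactivator of mitochondrial genes, had 51.9 and 49.8 CPM against 0.666 to 3.63 (5.31 ± 0.30, adjusted p = 5.81e-12). Cyc1, the cytochrome subunit of complex III outside the symbol rule, rose by 0.53 (adjusted p = 0.00489), and Cycs fell by 1.01 (adjusted p = 6.3e-06). Of 13 TCA cycle genes 4 rose and 4 fell, of 17 glycolysis genes 4 and 5, of 12 regulators 2 and 2, and of 77 mitochondrial ribosome genes 9 and 12, while all 76 cytosolic ribosomal protein genes fell (median -1.27). The summed level of 6 erythroid transcripts was 3752 and 921 CPM in macrophages and at most 122 in any other class, and its part in these results was not tested. Restricted to cells of 8000 to 20000 UMIs, 3 members rose and Ndufa5, Ndufa12, Ndufv2 and Uqcr11 were among those that lost their calls, while with no filter on low counts 6 rose.

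The pDC gate held 13 and 19 cells, and 9 and 12 of these also met another gate. Against resident cDCs 11 of 84 members fell, where 4.76% of all genes did, and 1 rose, where 4.91% of all genes did. The median difference was -0.36 over the members and -0.157 over all genes. The 1 was Cox6a2, near 0 in resident cDCs and carried by 3 cells described below. Complex IV gave 6 of the falls, complex V 4 and the complex I core 1, the flavoprotein-arm subunit Ndufv2 (74.6 and 79.5 CPM against 106 to 128, -0.78 ± 0.21, adjusted p = 0.0213). Atp5g3 had 123 and 126 CPM against 174 to 325 (-1.0 ± 0.16, adjusted p = 0.00035), and Cox5a 64.0 and 61.4 against 107 to 117 (-1.05 ± 0.29, adjusted p = 0.0272). Atp5g1 (53.3 and 72.2 CPM, -1.04 ± 0.28, adjusted p = 0.0207) and Atp5e (69.3 and 101 CPM, -0.98 ± 0.19, adjusted p = 0.00234) were lower too.

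Of the 13 mitochondrial mRNAs 8 fell, as did 4 of 17 glycolysis and 14 of 76 cytosolic ribosome genes, and no gene of complex II, the carriers, the TCA cycle, the regulators or the mitochondrial ribosome was called. With library size alone, which moved the median of all genes by 0.18, 2 members were lower and 3 higher, with 70.1% of all calls upward in place of 50.8%. With cells of exactly 1 gate none was higher, and Cox5a and Ndufv2 lost their calls. That setting leaves out the 3 cells that carried Cox6a2, since each met 2 gates.

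Lymphocytes, the equal-weight mean of B, T and NK cells, were set against the same resident cDCs. Of 84 members 29 fell, where 23.6% of all genes did, and 1 rose, where 16.0% of all genes did. With the replicate block 2 were higher, the added one being Cox6a2, which is near 0 in resident cDCs. The 29 include Cox6b2, which is low in lymphocytes and passed the filter on low counts only through other classes. The median difference was -0.20 over the members and -0.067 over all genes. The falls took 11 of 15 complex IV genes, 7 of 17 of complex V, 4 of 8 of complex III, 6 of 29 accessory subunits and 1 of 7 core subunits of complex I. Uqcrb had 44.0 and 70.0 CPM in B cells, 96.6 and 78.2 in T cells and 79.5 and 64.5 in NK cells, against 87.3 to 156 in resident cDCs (-0.83 ± 0.11, adjusted p = 6.53e-06). Atp5l, subunit g of ATP synthase, had 157 to 262 CPM across the 6 lymphocyte sums against 257 to 306 (-0.58 ± 0.08, adjusted p = 4.03e-06).

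Cox7a2l was uneven among lymphocytes, with 393 and 393 CPM in T cells, 242 and 235 in B cells and 201 and 299 in NK cells (-0.60 ± 0.09 against resident cDCs, adjusted p = 1.24e-05). T cells thus lay within the resident cDC range of 357 to 411, and B and NK cells under it. Ndufv3, an accessory subunit, was the 1 member called higher, at 71.5 to 117 CPM against 53.6 to 75.1 (0.32 ± 0.12, adjusted p = 0.0333), a call lost under 5 alternatives (no filter on low counts, no filter on deviating cells, cells of exactly 1 gate, without Scrublet doublets, without cycling cells). The mitochondrial mRNAs went the other way, with 10 of 13 higher and none lower. Among regulators 5 of 12 rose and 1 fell: Tfam, which packages and transcribes mitochondrial DNA, had 53.0 to 93.6 CPM in lymphocytes and 28.0 to 42.6 in resident cDCs (0.92 ± 0.13, adjusted p = 6.05e-06).

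Cycs fell by 0.83 (adjusted p = 3.03e-05), 4 of 13 TCA cycle genes and 1 of 4 complex II genes fell, and of 17 glycolysis genes 5 rose and 3 fell. In the cytosolic ribosome 6 genes rose and 22 fell, and in the mitochondrial 3 and 8. With library size alone, which moved the median of all genes by 0.19, 17 members fell and 5 rose, the members' median was -0.01, and upward calls made up 58.8% of all calls in place of 40.4% and 22.7% of member calls in place of 3.33%. Without replicate 1 the members' median was -0.31.

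**Figure D4:**
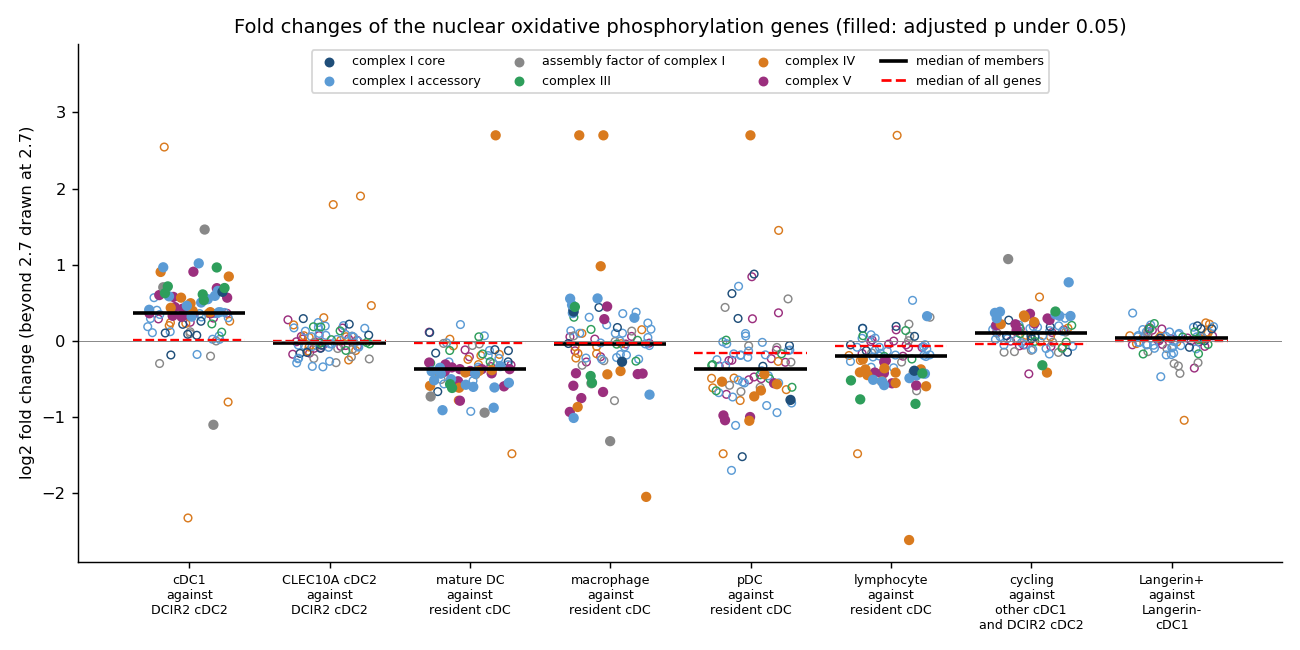
Log2 fold changes of the members in the 8 comparisons, 1 point per member coloured by complex, filled where the adjusted p is under 0.05. Values above 2.7 are drawn at 2.7. Black lines are the members' medians and red dashes the medians of all genes: the members' median is above that of all genes in cDC1s (0.36) and cycling cells (0.11), and below it in mature DCs (-0.37), the pDC gate (-0.36) and lymphocytes (-0.20).

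Cycling cells had more of these transcripts. cDC1s and DCIR2 cDC2s with at least 2 UMIs of Mki67 and Top2a together (163 and 149, and 153 and 140 cells) were compared with cells with none (454 and 361, and 322 and 264). The members took 1.07% and 1.08% of UMIs in cycling cDC1s against 0.960% and 0.978% in the others, and 0.900% and 0.906% in cycling DCIR2 cDC2s against 0.821% and 0.820%. Of 82 members tested 20 rose, where 11.4% of all 11150 genes did, and 2 fell, where 10.3% of all genes did. The median was 0.11 over the members and -0.046 over all genes. Rises included 7 of 17 complex V genes, 7 of 29 accessory subunits, 4 of 13 complex IV genes, 1 of 8 complex III genes and 1 of 8 assembly factors.

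Ndufaf2, the assembly factor that holds the place later taken by its relative Ndufa12 (chr13:108002715-108158623, minus strand, overlapping Smim15 and B230220B15Rik on the plus strand), had 22.8 and 20.4 CPM in cycling and 12.4 and 10.7 in other cDC1s, and 24.7 and 21.4 against 8.84 and 8.81 in DCIR2 cDC2s (1.07 ± 0.16, adjusted p = 0.000194). Ndufa12 itself had 144 and 123 against 98.8 and 102, and 76.6 and 70.8 against 52.8 and 60.7 (0.33 ± 0.09, adjusted p = 0.0162). Ndufa11 had 13.9 and 13.4 against 8.39 and 10.2, and 13.4 and 20.6 against 7.80 and 7.83 (0.77 ± 0.20, adjusted p = 0.0129). Cycling samples lay above the others in both cell types for these 3 genes. Smaller rises were those of Atp5o, which ties the catalytic head to the stalk of ATP synthase (0.35 ± 0.08, adjusted p = 0.0048), Cox6a1 (0.25 ± 0.05, adjusted p = 0.00244) and Atp5g3 (0.28 ± 0.07, adjusted p = 0.00686).

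Cox7a2l and Uqcrh were the 2 members that fell. Cox7a2l had 302 and 307 CPM in cycling and 408 and 391 in other cDC1s, and 316 and 317 against 381 and 401 in DCIR2 cDC2s (-0.42 ± 0.05, adjusted p = 2.24e-05). Uqcrh had 225 and 245 against 267 and 281, and 221 and 230 against 271 and 278 (-0.32 ± 0.06, adjusted p = 0.00108). The groups did not overlap in either cell type. Of the 13 mitochondrial mRNAs 8 fell and none rose, and 58 of 76 cytosolic ribosome genes fell, while 11 of 77 mitochondrial ribosome genes, 5 of 16 glycolysis genes (2 fell), 2 of 11 regulators (1 fell) and 1 TCA cycle gene rose. No complex II gene or carrier was called.

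Cycling cells also held more UMIs (medians of 22505 and 23833 against 18165.5 and 20050 in cDC1s, and 14560 and 15459.5 against 11330 and 11272.5 in DCIR2 cDC2s). With cells of 8000 to 20000 UMIs 1 member rose and 1 fell, DESeq2 called 5 higher, and library size alone raised upward calls over all genes from 52.5% to 69.4%. Ndufa12, Uqcr10, Ndufb6, Ndufc1 and Ndufa11 lost their calls with both DESeq2 and that range of depth.

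The study divided cDC1s by Langerin, encoded by Cd207, and 116 and 113 cDC1s had at least 1 Cd207 UMI against 568 and 457 with none. Langerin+ cells were covered more deeply, with medians of 22445 and 23444 UMIs against 19023.5 and 20248. A cell with no Cd207 UMI is called Langerin- by its count only. The members took 0.964% and 0.996% of UMIs in Langerin+ and 0.997% and 1.01% in Langerin- cDC1s. No member was called higher (0.435% of all 11044 genes were) or lower (0.435%), 5 members had an unadjusted p under 0.05, and DESeq2 called 0. With the sample as a block, since both groups came from the same 2 samples, Cox4i1 (adjusted p = 0.0213) and Cox7a2l (adjusted p = 0.00312) were called higher and none lower, where 3.53% of all genes were higher and 2.37% lower in this fit of 4 sums by edgeR. The median log2 difference of the members was 0.03, and -0.059 with library size alone. Cox7a2l had 410 and 396 CPM in Langerin+ and 369 and 360 in Langerin- cDC1s (0.24 ± 0.06, adjusted p = 0.163), and Cox4i1 305 and 323 against 280 and 295 (0.22 ± 0.07, adjusted p = 0.253). Ndufb8 had 24.4 and 26.4 CPM against 37.3 and 37.8 (-0.47 ± 0.15, adjusted p = 0.230), a difference that turned to 0.07 with cells of 8000 to 20000 UMIs. No mitochondrial mRNA was called, although 8 of 13 had an unadjusted p under 0.05, and no gene of complex II, the carriers, the TCA cycle, glycolysis, the regulators or the mitochondrial ribosome was called, while 3 of 76 cytosolic ribosome genes were higher. Library size alone turned upward calls from 50% to 25.7% of all genes called.

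Several complex IV subunits exist in a ubiquitous form and a form known from particular tissues, and 3 of these rarer isoforms were unevenly spread over the classes. Cox4i2, the lung-type isoform of Cox4 (chr2:152754173-152765037, plus strand), was detected in 27 of 293 macrophages of replicate 1 (9.22%, exact 95% interval 6.16% to 13.1%) and in 12 of 130 of replicate 2 (9.23%, 4.86% to 15.6%). It was detected in 3 of 684 and 0 of 570 cDC1s, which had a like depth per cell, in 1 of 484 and 0 of 408 CLEC10A cDC2s, and in no cell of the other 6 classes. The 0 of 570 cDC1s allows a share of up to 0.645% (exact 95% interval), a limit for cells with a UMI and for counting error only. Macrophages had 8.14 and 6.93 CPM. Cox4i2 passed the filter on low counts only through macrophages, so its fitted difference from resident cDCs is not given as a test. The ubiquitous Cox4i1 had 218 and 225 CPM in the same macrophages. With every cell thinned to 3000 UMIs the shares were 3.41% and 0.769% in macrophages and 0.292% in cDC1s of replicate 1.

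Cox6b2, the testis-type isoform of Cox6b (chr7:4751792-4753094, minus strand), was detected in every conventional DC class. Cells with a UMI were 40 of 556 and 36 of 456 DCIR2 cDC2s (7.19% and 7.89%), 35 of 484 and 47 of 408 CLEC10A cDC2s (7.23% and 11.5%), 6 of 293 and 4 of 130 macrophages (2.05% and 3.08%) and 31 of 684 and 42 of 570 cDC1s (4.53% and 7.37%). The pDC gate gave 1 of 13 and 5 of 19 cells, and mature DCs 3 of 138 and 8 of 173. In B cells it was detected in 1 of 65 and 0 of 172 cells, in T cells in 0 of 41 and 3 of 159, and in NK cells in 0 of 38 and 1 of 36, at median depths of 6145 to 7826 UMIs per cell. Summed per class, DCIR2 cDC2s had 8.71 and 8.33 CPM, macrophages 1.27 and 2.45 and B cells 1.57 and 0. Cox6b2 passed the filter on low counts only through classes other than macrophages and lymphocytes. Its fitted differences from resident cDCs, -2.05 in macrophages and -2.62 in lymphocytes, are therefore not given as tests. The size in lymphocytes depends on the prior count. The ubiquitous Cox6b1 had 174 to 285 CPM in every class.

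Cox6a2, the isoform of Cox6a known from heart and skeletal muscle (chr7:128205435-128206387, minus strand, inside the span of Itgad on the plus strand), was concentrated in a few cells. Only 8 of the 5653 kept cells had 3 or more Cox6a2 UMIs. The pDC gate had 101 and 108 CPM, which came from 3 of its 32 cells: those with 40 or more Siglech UMIs, which held 49 Cox6a2 UMIs in all, against 0 in the 29 cells with fewer. In replicate 2 this was 1 cell. The limit of 40 was not planned, and Siglech is itself a gene of the gate. The split therefore describes these few cells and is not a test. Among all kept cells, 4 of the 5 with 40 or more Siglech UMIs held Cox6a2 (60 UMIs), against 1 of 102 with 3 to 39 and 32 of 5418 with none. The fourth cell lay in the mature DC class by gate order, with 48 Siglech, 11 Ccr9 and 11 Cox6a2 UMIs, and carried the 1 upward call of that class (6.94 and 0.500 CPM).

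In the 4 cells with high Siglech and Cox6a2, the pDC regulator Tcf4 had 16 to 56 UMIs, against 1 to 5 in the other 4 cells with 3 or more Cox6a2 UMIs. An NK-class cell of replicate 1 had 49 Cox6a2 UMIs of 19564, with 11 Ncr1 and 0 Siglech UMIs, and made up most of that class's 156 CPM, against 3.40 in replicate 2. cDC1s had 0 cells with Cox6a2 of 684 and 570, and Cox6a1 had 193 to 357 CPM in every class. Reads of Itgad were at most 3 UMIs in the 8 cells. The fitted differences of Cox6a2 for the pDC gate (9.22) and mature DCs (4.54) rest on these cells and on near-0 controls. That for macrophages (3.38, at 1.45 and 1.63 CPM) rests on other cells and the same controls. Cox6a2 was detected in 7 of 293 and 4 of 130 macrophages, with at most 2 and 1 UMIs per cell. Cox7a1, Cox7b2 and Ndufa4l2 were too low to test in any comparison, and Cox4i2 and Cox6a2 were not tested among cDC1s and DCIR2 cDC2s.

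**Figure D5:**
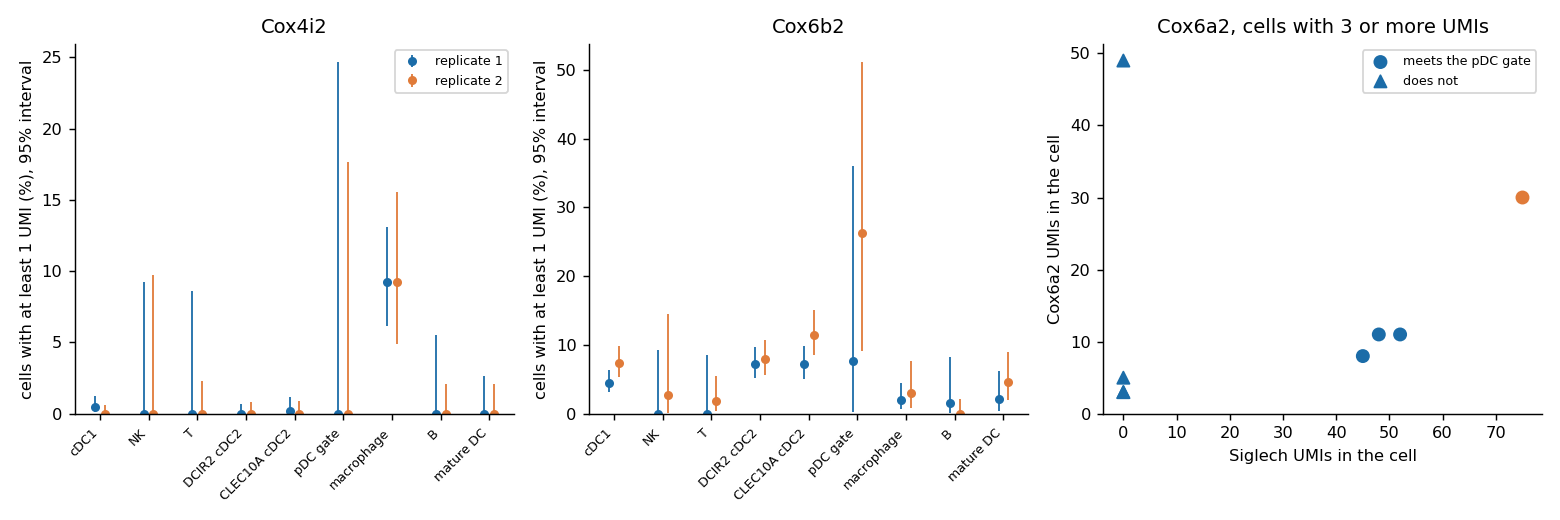
Share of cells with at least 1 UMI of Cox4i2 (left) and Cox6b2 (middle) per class and replicate, with exact 95% intervals, and Cox6a2 against Siglech UMIs in the 8 cells with 3 or more Cox6a2 UMIs (right, where circles meet the pDC gate, triangles do not, and 2 cells with 3 Cox6a2 UMIs share a point at 0 Siglech). Cox4i2 stands at 9.22% and 9.23% in macrophages, and the 4 cells that meet the pDC gate all have 45 or more Siglech UMIs.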

How the data were processed

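Splenic CD11c+ cells of 2 samples were captured on the BD Rhapsody system. The authors deposited 1 table per sample of counts (UMIs per gene and cell after error correction), made per the file headers with the BD Rhapsody WTA Analysis Pipeline 1.12.1 on GRCm38 with GENCODE annotation, intronic reads included. The run also tagged mice not analysed here. R 4.2.3 and Seurat 4.3.0.1 are named in the submitters' processing notes.

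Cells with under 200 genes, or over 3 median absolute deviations from the sample's centre in UMIs, genes or mitochondrial share, were left out. No cell index was shared between the samples. Doublets were not removed in the main analysis (Scrublet marked 34 and 26 cells). The samples kept 2928 and 2725 cells (median 12220 and 11435 UMIs). Counts were summed per class and sample and tested with edgeR 4.0.16 (quasi-likelihood F test, TMM, filterByExpr, Benjamini-Hochberg over all genes, R 4.3.3), with gate genes left out: 1 fit over 18 sums for 6 comparisons, 1 over 8 for cycling cells and 1 over 4 for Langerin. Values after ± are SEs from that fit unless marked SD. The fits were also run on simulated counts drawn independently for each sum. These held no effect shared by the sums of a sample, so they cannot check the pairing. Gene positions are those of a later GENCODE release on GRCm38. Shares of cells carry exact Clopper-Pearson 95% intervals, also for a count of 0, and these cover counting error only. All sums of 1 number came from the same sample, so the replicate block is printed where it changes a call. Deviations of same-numbered sums correlated at -0.051 to 0.133 over 36 pairs of classes, 0.0586 to 0.168 over 6 pairs of cycling and other sums and 0.144 for the Langerin pair. Alternatives were DESeq2 1.42.0, other scalings and filters, a replicate block and leaving out each replicate. The members and gene lists (complex II, carriers, mitochondrial mRNAs, TCA cycle, glycolysis, regulators, ribosomes) were chosen with earlier results of these data known. Members named are paired isoforms, complex I core, complex III, ATP synthase, assembly factors, the 10 most abundant, and per comparison the 5 called with the largest change in each direction. The values of 1 member are not reported here.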

Additional observations from a re-analysis of the deposited data

How the results depend on the processing

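The 40 members higher in cDC1s became 20 with library size alone, and the 1 lower became 2 with cells of exactly 1 gate and 2 with only the classes compared in the fit. In CLEC10A against DCIR2 cDC2s, DESeq2 called 2 and a fit of those classes 3 members higher. The 1 higher in mature DCs became 0 with exactly 1 gate and 0 with only the classes compared. Cells of exactly 1 gate exclude the mature DC cell with 11 Cox6a2 UMIs and the 3 Cox6a2 cells of the pDC gate, which each met 2 gates. For Cox6a2 in these 2 classes that setting is therefore no check. Higher members in macrophages were 6 with no filter on low counts and 3 with cells of 8000 to 20000 UMIs. In the pDC gate, higher members were 2 (DESeq2), 2 (RLE size factors), 3 (library size alone) and 0 (exactly 1 gate), and lower members 2 (library size alone), 26 (no filter on low counts), 23 (no filter on deviations), 6 (8000 to 20000 UMIs) and 19 (only the classes compared). In lymphocytes, higher members were 4 (DESeq2), 5 (library size alone), 2 (replicate block), 0 (no filter on deviations), 0 (exactly 1 gate) and 0 (without Scrublet doublets), and lower members 17 (library size alone), 48 (no filter on low counts) and 18 (8000 to 20000 UMIs). In cycling cells, 5 were higher with DESeq2, and with 8000 to 20000 UMIs 1 was higher and 1 lower. Langerin+ cDC1s had 2 higher under the replicate block. Reversed values, with medians counted only where a member was called, were the members' median in macrophages (0.032 with DESeq2 and 0.031 with RLE size factors, against -0.036) and Ndufb8 in Langerin+ cDC1s (0.065 at 8000 to 20000 UMIs). In Langerin+ cDC1s, where no member was called, the members' median turned from 0.033 to -0.059 with library size alone. Apart from the left-out Cox6a2 cells, the causes were not tested.

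The share of the members, in percent of UMIs, moved by more than the spread between replicates as follows. Counting nuclear genes only gave 0.818 in macrophages, 0.716 in mature DCs, 1.06 in cDC1s, 0.8226 in the pDC gate, 0.784 in B cells, 0.970 in T cells, 0.899 in DCIR2 and 0.8723 in CLEC10A cDC2s. Leaving out ribosomal protein genes too gave 0.853, 0.778, 1.19, 0.914, 0.881, 1.15 (T cells), 0.989 and 0.977, and 1.08 in NK cells. Cells of exactly 1 gate gave 0.757 in macrophages, 0.661 in mature DCs, 0.682 in the pDC gate and 0.867 in DCIR2 cDC2s. Leaving out cycling cells gave 0.660 in mature DCs, 0.972 in cDC1s, 0.871 in T cells and 0.821 in DCIR2 cDC2s. With 8000 to 20000 UMIs macrophages had 0.726 and DCIR2 cDC2s 0.835, and without the filter on deviations macrophages had 0.787.

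Thinned to 3000 UMIs, and then with at least 2 UMIs required, the percent of cells with Cox4i2 was 3.41 and 4.10 in macrophages of replicate 1 and 0.769 and 2.31 in replicate 2. For Cox6b2 it was 2.07 and 1.86, and 3.92 and 2.94, in CLEC10A cDC2s of replicates 1 and 2, 2.16 and 2.88, and 1.10 and 2.41, in DCIR2 cDC2s, and 0.731 and 1.46, and 1.05 and 1.93, in cDC1s. Leaving out a replicate leaves no residual degrees of freedom and gives values without a test: the members' median then ranged from 0.35 to 0.36 in cDC1s, -0.40 to -0.34 in mature DCs, -0.06 to -0.03 in macrophages, -0.39 to -0.37 in the pDC gate, -0.31 to -0.18 in lymphocytes and 0.10 to 0.13 in cycling cells. The replicate block changed no call given for a single member other than those marked beside the results. Under the replicate block 43 members rose in cDC1s. Of the single-member results under alternatives, 895 were labelled the same, 73 lost and 15 gained a call, 9 moved and 1 reversed. The 895 mix 2 rules. Tested results had to keep direction and side of the threshold. Results without an adjusted p, such as those of 1 replicate alone, had only to lie within the SD of the 2 replicate values. With 2 replicates that rule is rarely failed, so the 895 is not a count of calls upheld. The number of samples, 2 per class, and the 13 and 19 cells of the pDC gate limit precision.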
